A study of Mus musculus with 11 samples.

Results

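Genes that mark macrophages or their polarization, 10 in number, were followed in the RNA of subcutaneous MC38 tumors: *Cd68*, *Csf1r*, *Csf1*, *Msr1*, *Mrc1*, *Cd163*, *Arg1*, *Chil3*, *Nos2* and *Hsd11b1*. They were chosen by name, without reference to a threshold but with earlier results of these data known. All 10 were present among the 758 genes with a value. The 11 tumors came from C57BL/6 mice of 6 to 8 weeks that had received 100000 to 200000 MC38 cells (a mouse colon carcinoma line). Treatment was hetIL-15 in 6 mice and PBS in 5. HetIL-15 is a heterodimer of IL-15 and its receptor alpha chain. Injections were intraperitoneal, at 3 µg hetIL-15, 3 per week, from day 5, and tumors were taken 3 h after the 4th injection. No gene was deleted or introduced in either group. The tumors are separate samples in the labels, each taken as 1 replicate.

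Macrophages arise from monocytes or tissue precursors and depend on signaling by colony stimulating factor 1 through its receptor. Under interferon-γ and bacterial products they express *Nos2*, the inducible nitric oxide synthase that consumes arginine, whereas IL-4 and IL-13 induce *Arg1*, which turns the same amino acid into ornithine and urea, together with *Chil3*, the chitinase-like protein Ym1, and *Mrc1*. In tumors the programs are often mixed, and most of these genes are also used by other cells: *Arg1* and *Chil3* by neutrophils and monocytic cells, *Csf1* by stroma and tumor cells, and *Hsd11b1*, which encodes the enzyme that regenerates active glucocorticoid, by fibroblasts and adipocytes. The values are of whole-tumor RNA, so that fewer cells of a type and less RNA per cell cannot be told apart.

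Expression was measured with color-coded probes on the nCounter PanCancer Immune panel. It is given on the log2 scale after the authors' quantile normalization between tumors, so that a difference of 1 is a 2-fold change. Off the log2 scale, each tumor sums to between 999186 and 999245. The counts and hence the depth of each tumor were not used here, which leaves the precision of a single value unknown. Differences are hetIL-15 minus PBS from limma fitted to all 758 genes, with the standard error (SE) and the Benjamini-Hochberg adjusted p over all genes. An exact two-sided permutation test over the 462 groupings of the tumors stands beside it, with 0.00216 the smallest p it can give. Lineage markers had a value in every tumor, and the lowest among the 14 macrophage lineage genes in any tumor was 3.75. That is under 3.84, the bound of the lowest 10% of genes by mean signal, and probe background was not assessed.

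None of the 10 macrophage genes passed an adjusted p of 0.05, either higher or lower, in hetIL-15-treated against PBS tumors. Among all genes 2.11% passed (16 of 758, of which 13 were higher and 3 lower). *Hsd11b1* and *Chil3* had the largest differences, 2.98-fold and 2.11-fold higher, and were the only 2 members at an unadjusted limma p under 0.05, a level reached by 11.9% of all genes. By the exact Mann-Whitney test per gene 2 members had an unadjusted p under 0.05, as did 69 of all 758 genes, and after adjustment this test left 0 of all genes (smallest adjusted p = 0.173), so that its 0 members carry no information. When 1 tumor was left out, 1 further member came under this unadjusted limma level in either of 2 cases: *Csf1* (log2 fold change −0.31) without PBS replicate 2 and *Msr1* (0.34) without hetIL-15 replicate 5. The groups overlapped for each of the 10 members, whereas 2.51% of all genes had groups that did not overlap. The median log2 fold change was −0.02 over the members and −0.03 over all genes.

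**Figure D1:**
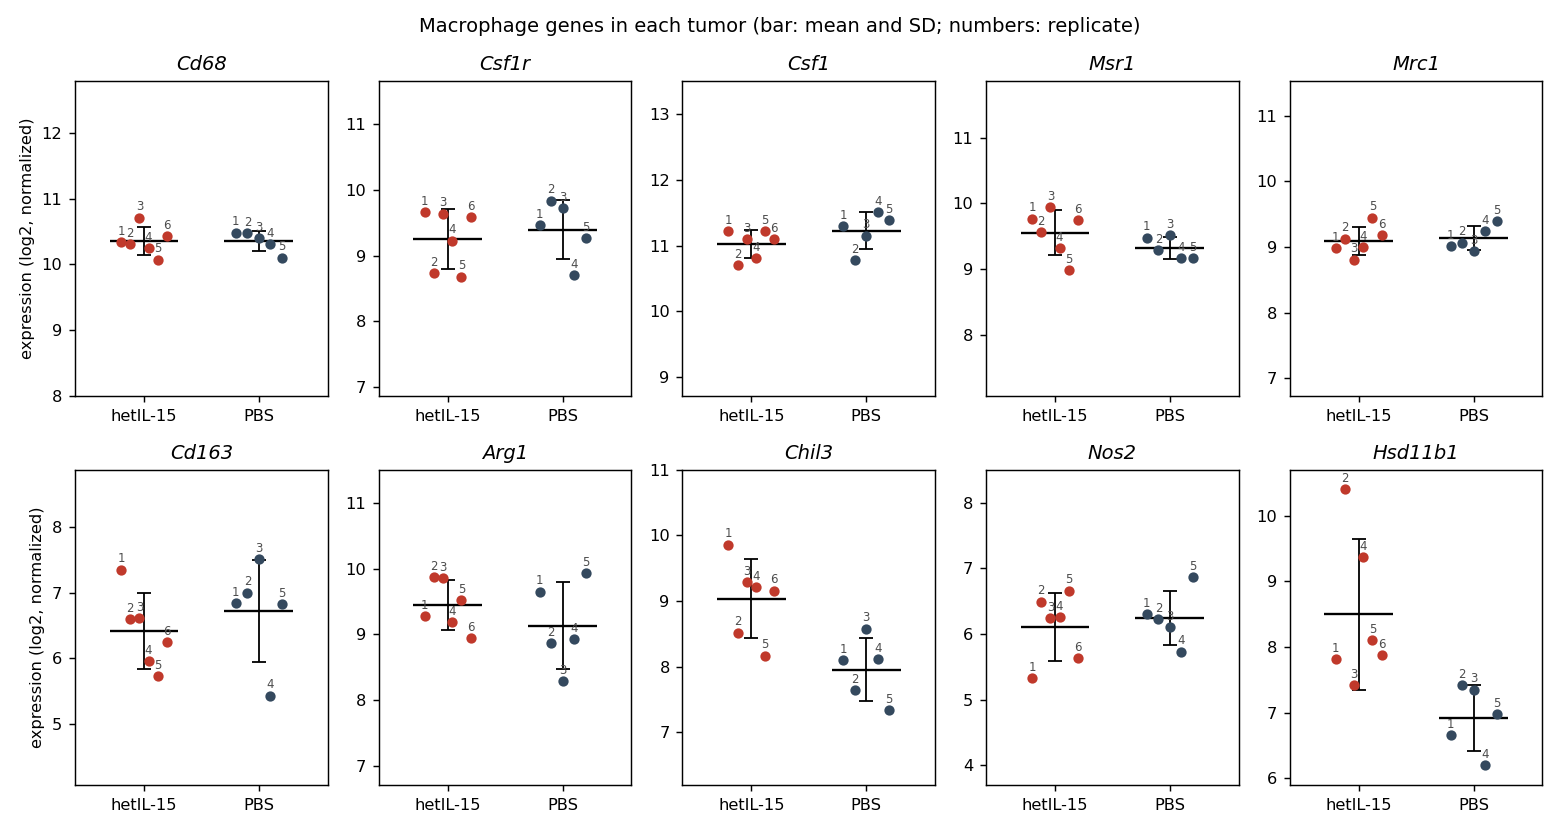
Normalized expression (log2, vertical axis, with the same span in each panel) of the 10 macrophage genes in each hetIL-15 tumor (red, n = 6) and PBS tumor (dark, n = 5), with replicate numbers, the mean (line) and the SD (bar). *Hsd11b1* and *Chil3* lay higher in most hetIL-15 tumors, and the groups overlapped in each panel.

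Transcripts of the macrophage lineage did not separate the groups. *Cd68*, a lysosomal glycoprotein used as a pan-macrophage marker, ranged from 10.07 to 10.71 in hetIL-15 tumors with a median of 10.33, and was 10.48, 10.47, 10.40, 10.31 and 10.10 in PBS tumors 1 to 5. The means were 10.35 ± 0.21 in hetIL-15 and 10.35 ± 0.16 in PBS tumors (SD, n = 6 and 5), with a log2 fold change of 0.00 (SE 0.12, 95% interval −0.27 to 0.27, limma adjusted p = 1.00, exact permutation p = 0.998). The interval leaves room for a change of up to 1.21-fold in either direction. *Csf1r*, the receptor through which macrophages receive their survival signal, ranged from 8.68 to 9.66 (median 9.41) in hetIL-15 tumors, against 9.46, 9.84, 9.72, 8.70 and 9.27 in PBS tumors. Hence both groups held low and high tumors: hetIL-15 replicates 2 and 5 and PBS replicate 4 had the lowest *Csf1r*. The difference was −0.14 (SE 0.26, limma adjusted p = 0.903). *Csf1*, its ligand, ranged from 10.70 to 11.22 (median 11.10) in hetIL-15 tumors, and was 11.29, 10.78, 11.15, 11.51 and 11.39 in PBS tumors. In 3 of 5 PBS tumors *Csf1* was above all hetIL-15 tumors, but PBS replicate 2 was near the bottom, and the difference of −0.20 (SE 0.15, 95% interval −0.53 to 0.13) did not pass the test (limma adjusted p = 0.702).

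The scavenger receptors also overlapped between groups. *Msr1*, the class A scavenger receptor that takes up modified lipoproteins, ranged from 8.99 to 9.94 (median 9.66) in hetIL-15 tumors, and was 9.48, 9.29, 9.52, 9.17 and 9.17 in PBS tumors. In 4 of 6 hetIL-15 tumors *Msr1* was above all PBS tumors and hetIL-15 replicate 5 was below them all, with a log2 fold change of 0.23 (SE 0.17, limma adjusted p = 0.660). *Mrc1*, the mannose receptor CD206, ranged from 8.81 to 9.45 (median 9.06) in hetIL-15 tumors, against 9.02, 9.07, 8.94, 9.25 and 9.40 in PBS tumors. The ranges nearly coincided, and the difference of −0.04 (SE 0.13, 95% interval −0.33 to 0.24, limma adjusted p = 0.950) was 0.04 when the tumors were scaled to housekeeping genes. *Cd163*, the hemoglobin scavenger receptor induced by glucocorticoids and IL-10, ranged from 5.73 to 7.35 (median 6.42) in hetIL-15 tumors, and was 6.84, 7.0, 7.51, 5.43 and 6.82 in PBS tumors. PBS replicate 3 was the highest and PBS replicate 4 the lowest of all 11 tumors. The difference of −0.30 (SE 0.38, limma adjusted p = 0.837) was −0.11 without PBS replicate 3 and −0.63 without PBS replicate 4.

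Among the polarization genes, *Chil3* had the largest difference. It ranged from 8.17 to 9.86 (median 9.19) in hetIL-15 tumors, and was 8.10, 7.64, 8.58, 8.12 and 7.34 in PBS tumors. In 4 of 6 hetIL-15 tumors *Chil3* was above all PBS tumors, and the other 2, replicates 2 and 5, lay within the PBS range. The mean was 9.04 ± 0.60 in hetIL-15 tumors and 7.96 ± 0.48 in PBS tumors (SD, n = 6 and 5), with a log2 fold change of 1.08 (SE 0.31, 95% interval 0.40 to 1.76). *Chil3* was 25th of 758 genes by p (unadjusted limma p = 0.00530, exact permutation p = 0.0152) with a limma adjusted p of 0.161, and adjusted p values over the alternatives lay between 0.0650 and 1.00. Its probe may also bind the closely related *Chil4*, which was not tested.

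*Arg1*, arginase 1, ranged from 8.94 to 9.87 (median 9.39) in hetIL-15 tumors, against 9.65, 8.86, 8.28, 8.93 and 9.93 in PBS tumors. All 6 hetIL-15 tumors lay inside the PBS range, and PBS replicate 5 had the highest value of the series. The mean was 9.44 ± 0.38 in hetIL-15 and 9.13 ± 0.66 in PBS tumors, and the log2 fold change of 0.31 (SE 0.30, 95% interval −0.34 to 0.96, limma adjusted p = 0.777) was 0.10 without PBS replicate 3 and 0.51 without PBS replicate 5. *Nos2*, which competes with arginase for arginine, ranged from 5.33 to 6.66 (median 6.25) in hetIL-15 tumors, and was 6.30, 6.22, 6.10, 5.73 and 6.87 in PBS tumors. Only hetIL-15 replicates 1 and 6 were below all PBS tumors, whereas the others lay within the PBS range. The difference of −0.14 (SE 0.27, 95% interval −0.73 to 0.45, limma adjusted p = 0.910) was 0.02 without PBS replicate 5 and 0.01 without hetIL-15 replicate 1.

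*Hsd11b1*, 11-beta-hydroxysteroid dehydrogenase type 1, had the largest fold change of the 10 genes and the 6th highest of all 758. It ranged from 7.42 to 10.40 (median 7.99) in hetIL-15 tumors, and was 6.66, 7.42, 7.35, 6.20 and 6.98 in PBS tumors. In total, 5 of 6 hetIL-15 tumors were above all PBS tumors, and the lowest, replicate 3, had the same value as PBS replicate 2. Replicate 2 at 10.40 and replicate 4 at 9.37 stood above the other hetIL-15 tumors, of which the highest was replicate 5 at 8.10. The means were 8.50 ± 1.14 in hetIL-15 tumors and 6.92 ± 0.51 in PBS tumors (SD, n = 6 and 5), with a log2 fold change of 1.58 (SE 0.51, 95% interval 0.45 to 2.70). The unadjusted limma p was 0.0107 and the exact permutation p 0.00649, whereas the adjusted p of 0.238 (0.144 to 1.00 over the alternatives) did not pass. Without hetIL-15 replicate 2 the log2 fold change was 1.20, and without PBS replicates 4 and 5 the unadjusted limma p was 0.0612.

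**Figure D2:**
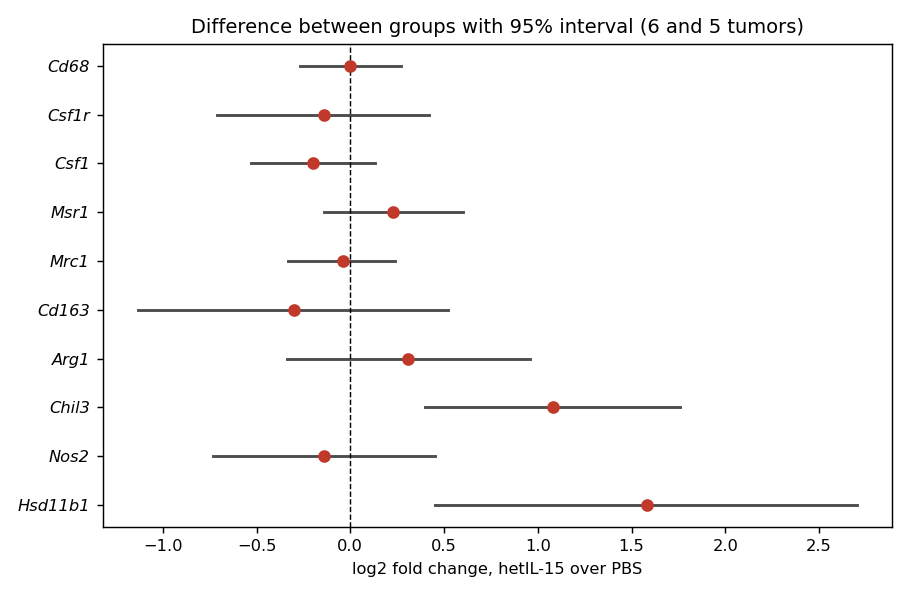
Log2 fold change of each macrophage gene, hetIL-15 over PBS (points, horizontal axis), with the 95% interval of the limma fit (lines, n = 6 and 5 tumors). The intervals of *Chil3* (0.40 to 1.76) and *Hsd11b1* (0.45 to 2.70) lie above 0 before adjustment, and those of the other 8 genes include 0.

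The members differed widely in how much they varied between tumors of one group. *Hsd11b1* had a pooled within-group SD of 0.92, above that of 94.5% of all 758 genes, and spanned 7.86-fold among hetIL-15 tumors and 2.34-fold among PBS tumors. *Cd163* followed with an SD of 0.67 (above 84.2% of genes), and here the wider range was that of PBS tumors, 3.07-fold among hetIL-15 and 4.22-fold among PBS tumors. *Chil3* (0.55), *Arg1* (0.52), *Nos2* (0.47) and *Csf1r* (0.45) had SDs above the median gene's 0.34, whereas *Msr1* (0.28), *Csf1* (0.25), *Mrc1* (0.20) and *Cd68* (0.19) were below it. These SDs are a description and were not tested.

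Because *Chil3* and *Hsd11b1* carried the largest differences, the 250 bases before their RefSeq start sites (GRCm38.p6) are set side by side. Capitals mark matches on either strand to 5 motifs: CCAAT, the STAT motif TTCNNNGAA, the glucocorticoid receptor motif ACANNNTGT, the PU.1 core AGGAAG and the C/EBP motif TTGCNNAA.
Chil3, chr3:106167565-106167814, minus strand: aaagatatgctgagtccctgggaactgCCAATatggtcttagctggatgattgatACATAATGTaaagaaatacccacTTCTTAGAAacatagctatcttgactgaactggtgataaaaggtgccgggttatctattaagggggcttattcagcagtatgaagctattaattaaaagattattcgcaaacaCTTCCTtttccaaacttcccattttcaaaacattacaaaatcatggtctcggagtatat
Hsd11b1, chr1:193242361-193242610, minus strand: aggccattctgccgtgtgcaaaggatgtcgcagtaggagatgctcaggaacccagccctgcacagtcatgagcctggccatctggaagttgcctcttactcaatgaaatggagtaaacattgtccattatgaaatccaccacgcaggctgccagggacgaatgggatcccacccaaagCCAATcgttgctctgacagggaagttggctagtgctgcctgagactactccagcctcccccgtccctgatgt
*Chil3* held 1 match each to CCAAT, ACANNNTGT, TTCNNNGAA and AGGAAG, in that order toward the start, none of which overlapped. Of 32851 mouse promoter windows of this length, 33.8% held CCAAT, 5.84% ACANNNTGT, 7.02% TTCNNNGAA, 29.5% AGGAAG and 9.56% TTGCNNAA. *Hsd11b1* held a single match, to CCAAT. Its annotated gene extends 21685 bases farther upstream, so this window precedes 1 of its start sites and may not be the one in use in these tumors. A match in letters is a description and not a bound site. Entries were given for *Cd68*, *Csf1*, *Mrc1* and *Cd163* too, which are not shown.

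It was next asked whether *Hsd11b1*, *Chil3* and *Arg1* varied together from tumor to tumor. These genes were named with earlier results of these data known, so their correlations are a description of these tumors. Over 11 tumors *Hsd11b1* and *Chil3* had a Pearson r of 0.34 (permutation p = 0.301) and a Spearman rho of 0.48 (permutation p = 0.134). With the group means subtracted, r was −0.33 (exact permutation within groups, p = 0.402), and within the 6 hetIL-15 tumors −0.41 (exact permutation p = 0.388). The pooled and within-group values thus had opposite signs: the hetIL-15 tumor with the highest *Hsd11b1*, replicate 2, was the second lowest of its group in *Chil3*, and the one with the highest *Chil3*, replicate 1, was the second lowest in *Hsd11b1*. *Hsd11b1* and *Arg1* had an r of 0.23 (permutation p = 0.496) and a rho of 0.16 (permutation p = 0.637), with r = 0.02 after subtracting group means (exact permutation p = 0.947). Without hetIL-15 replicate 2, which was high in both genes, r was −0.05. *Chil3* and *Arg1* had an r of −0.10 (permutation p = 0.767) and a rho of −0.09 (permutation p = 0.797), and −0.52 after subtracting group means (exact permutation p = 0.102). PBS replicate 5 was highest in *Arg1* and lowest in *Chil3* of all tumors, and without it r was 0.13. Leaving out the 2 tumors farthest from the median on the horizontal axis gave r = 0.36, 0.35 and 0.14 for the 3 pairs in the same order. No correlation was computed within the 5 PBS tumors alone.

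**Figure D3:**
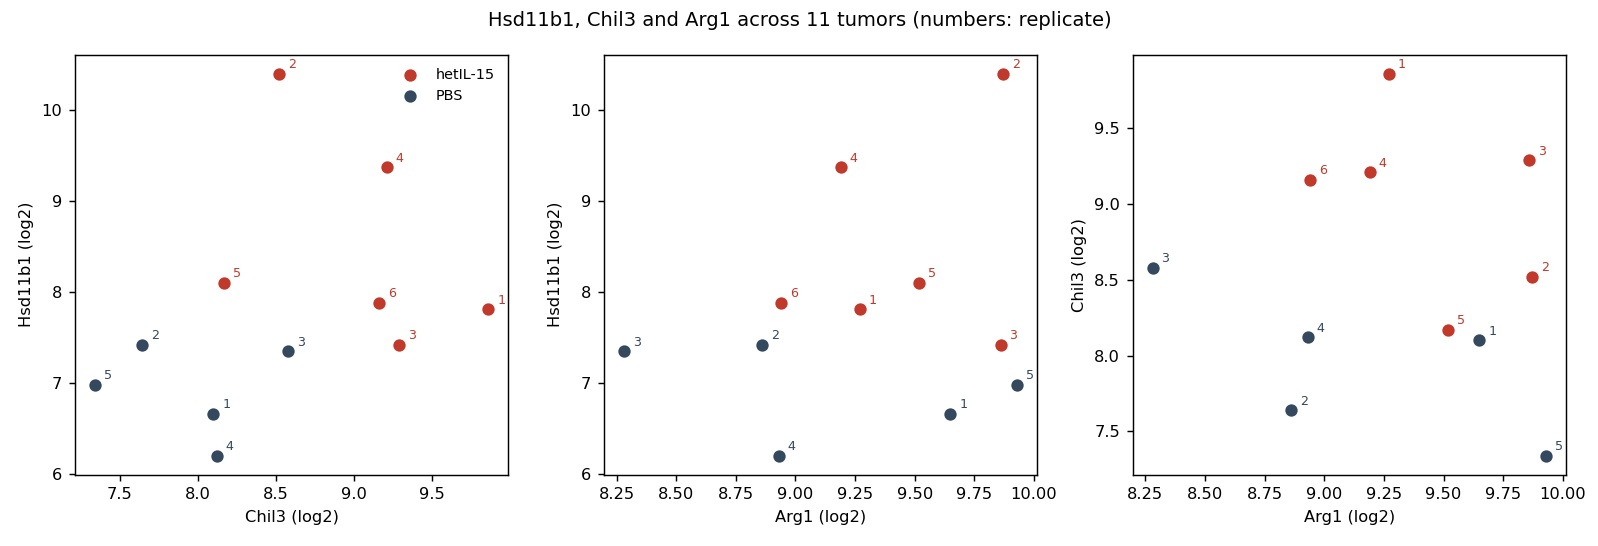
Normalized expression (log2) of *Hsd11b1* against *Chil3* and *Arg1*, and of *Chil3* against *Arg1*, with 1 point per tumor labelled by replicate number, hetIL-15 in red and PBS in dark. No pair shows a common trend (r = 0.34, 0.23 and −0.10 over 11 tumors).

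All 45 pairs of the 10 genes were examined in the same way, and no pair passed an adjusted p of 0.05 over the 45 by Pearson r, Spearman rho or with group means subtracted, whereas 9 had an unadjusted Pearson p under 0.05. *Cd68* and *Mrc1*, the pair with the largest r, ran opposite to each other (r = −0.82, permutation p = 0.00194, adjusted 0.0556, rho = −0.64), also with group means subtracted (r = −0.83). *Msr1* and *Mrc1* had r = −0.76 (permutation p = 0.00656, adjusted 0.0738, rho = −0.73), and *Msr1* and *Cd68* r = 0.77 (permutation p = 0.00507, adjusted 0.0738, rho = 0.64). These 3 relations rested partly on hetIL-15 replicates 3 and 5, at opposite ends of *Cd68* and *Msr1*: without both, r was −0.60 for *Cd68* and *Mrc1*, −0.50 for *Msr1* and *Mrc1*, and 0.46 for *Cd68* and *Msr1*. *Csf1r* and *Cd163* had r = 0.74 (permutation p = 0.0107, adjusted 0.0836, rho = 0.85), and 0.45 without hetIL-15 replicate 5 and PBS replicate 4. *Csf1r* also had r = 0.62 with *Cd68* and −0.64 with *Mrc1* (permutation p = 0.0411 and 0.0355, adjusted 0.206 and 0.20), which were 0.48 and −0.37 without the 2 farthest tumors. With the tumors scaled to housekeeping genes the relations of *Mrc1* were smaller, with r = −0.57 for *Cd68*, −0.48 for *Msr1* and −0.37 for *Csf1r* (permutation p = 0.0687, 0.136 and 0.260). Under the same scaling 5 of the 45 pairs passed the adjustment. Among them were *Cd68* with *Msr1* (r = 0.88, permutation, adjusted p = 0.0274) and *Cd68* with *Csf1r* (r = 0.77, adjusted 0.0498). *Csf1r* with *Cd163* and *Msr1* with *Chil3* also passed (permutation, adjusted p = 0.0498 for each).

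*Csf1* and *Hsd11b1* also ran opposite to each other (r = −0.80, permutation p = 0.00247, adjusted 0.0556, rho = −0.73). Within groups the direction was the same, with r = −0.79 after subtracting group means (exact permutation within groups, adjusted p = 0.0688). In the 6 hetIL-15 tumors r was −0.92 (exact permutation p = 0.0278, unadjusted). None of the 45 pairs passed the adjustment in these 6 tumors. There *Csf1r* and *Chil3* had the smallest p (r = 0.91, exact permutation p = 0.00694), against r = 0.25 over 11 tumors. For *Csf1* and *Hsd11b1* r was −0.90 without the 2 tumors with the lowest *Csf1*, hetIL-15 replicate 2 and PBS replicate 2. Without PBS replicate 2 alone r was −0.94 and the pair passed the adjustment (permutation, adjusted p = 0.00630). Without hetIL-15 replicate 2 alone r was −0.71. Over 19 alternative settings r lay between −0.94 and −0.68, and the pair passed the adjustment in 2 of them. *Chil3* and *Msr1* had r = 0.73 (permutation p = 0.0111, adjusted 0.0836, rho = 0.74), and 0.76 without the 2 farthest tumors. *Chil3* and *Nos2* had r = −0.65 (permutation p = 0.0300, adjusted 0.193, rho = −0.52), which was −0.21 without hetIL-15 replicate 1 and PBS replicate 5, the tumors at the ends of *Chil3*. *Arg1* and *Nos2*, which use the same substrate, had r = 0.53 (permutation p = 0.0976, adjusted 0.365) and rho = 0.68 (permutation p = 0.0251, adjusted 0.189).

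**Figure D4:**
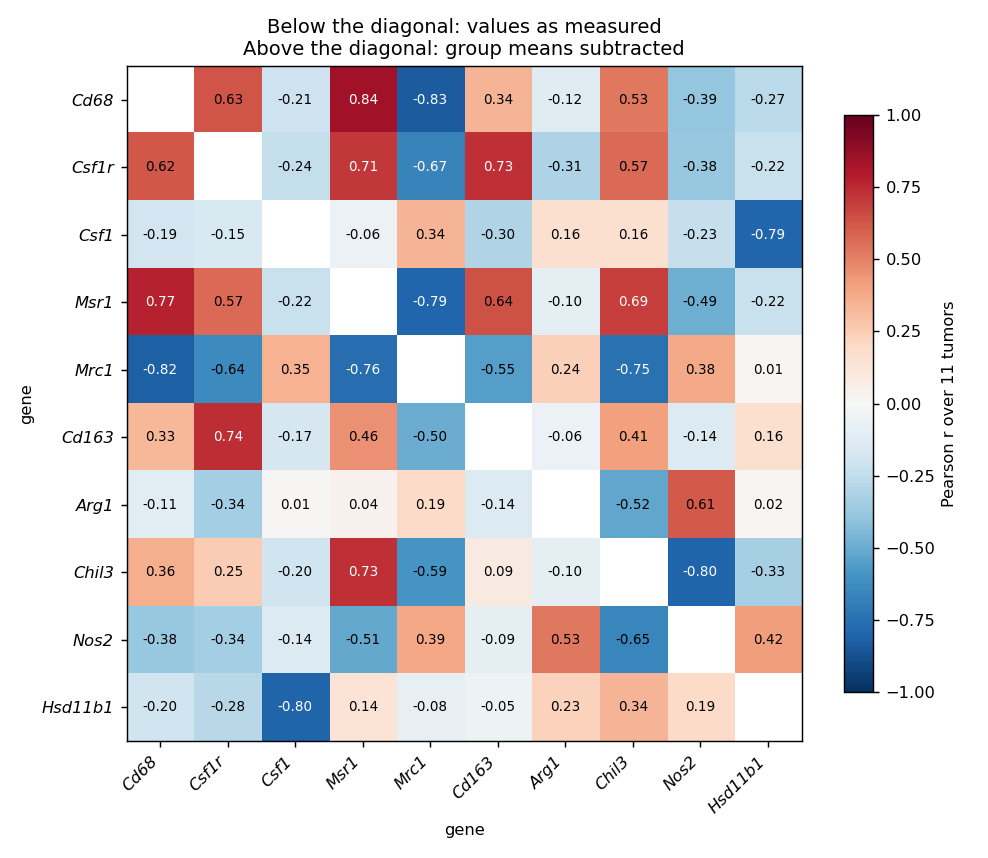
Pearson r over 11 tumors between each pair of the 10 macrophage genes (red positive, blue negative), with values as measured below the diagonal and with group means subtracted above it. *Hsd11b1* with *Csf1* (−0.80 and −0.79) and *Cd68* with *Mrc1* (−0.82 and −0.83) have like values on both sides, whereas *Hsd11b1* with *Chil3* has 0.34 below and −0.33 above.

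**Figure D5:**
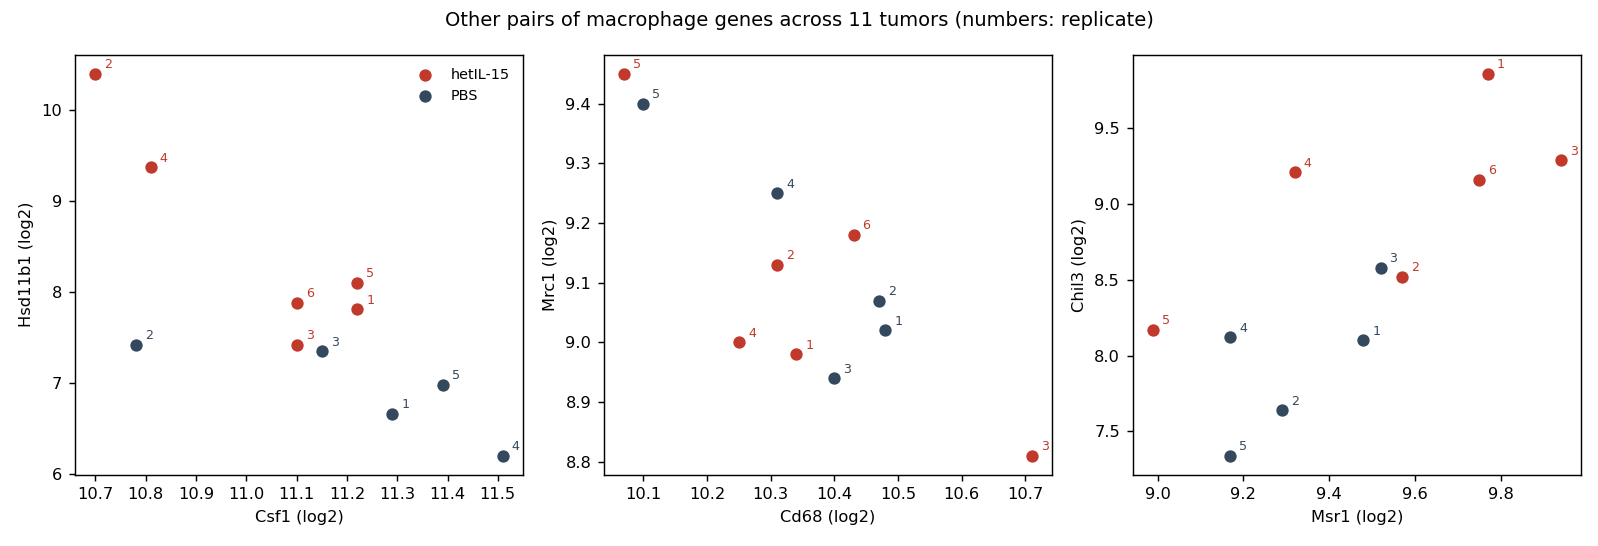
Normalized expression (log2) of *Hsd11b1* against *Csf1*, *Mrc1* against *Cd68*, and *Chil3* against *Msr1*, with 1 point per tumor labelled by replicate number, hetIL-15 in red and PBS in dark (r = −0.80, −0.82 and 0.73). PBS replicate 2 lies apart from the other tumors in the panel of *Csf1*.

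The genes outside the 10 whose values across the 11 tumors were most like those of *Hsd11b1* included *Cd81*, a tetraspanin (r = 0.95), *Notch1* (0.93), *Mme*, a membrane peptidase (0.91), and *Tgfb1* (0.90). With group means subtracted they included *Cd81* (0.92), *Stat3* (0.90), *C1ra* (0.88) and *Notch1* (0.85). For *Chil3* they were *Amica1*, a leukocyte adhesion molecule (0.87), *Klrc1*, an NK receptor (0.85), *Clec4n*, the lectin dectin-2 (0.84), *Ctsw*, a protease of NK and CD8+ T cells (0.83), and *Cd69*, an early activation marker (0.83). Of these, *Klrc1*, *Ctsw* and *Cd69* were higher in hetIL-15 tumors (limma adjusted p = 0.0227, 0.0227 and 0.00404). *Ctsw* lost this call when any one of PBS replicates 1 and 4 and hetIL-15 replicates 2, 3 and 4 was left out (limma adjusted p = 0.0577, 0.0558, 0.0564, 0.0531 and 0.0554). With group means subtracted only *Clec4n* remained among the first 5 for *Chil3* (0.89), followed by *Tek* (0.85), *Cma1* (0.85), *Il18* (0.83) and *Cxcl14* (0.83). For *Arg1* they were *Nod2* (0.76), *Stat6*, the transcription factor activated by IL-4 (0.75), *Cd6* (0.74), *Defb1* (0.73) and *Ifna2* (0.70), and with group means subtracted *Ifna2* (0.78), *Yy1* (0.76), *Nod2* (0.75), *Stat6* (0.73) and *Cd6* (0.73). These are descriptions over 11 points that share one normalization, picked as the highest r of 747 genes.

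The wider pathways were described by lists of genes, some of which hold the members themselves. No gene passed the adjusted threshold among 14 macrophage lineage genes (median log2 fold change −0.01), 18 of classical activation (−0.17), 16 of alternative activation (0.04), 13 scavenger and lectin receptors (0.05), 9 colony stimulating factors and receptors (0.08), 19 inducers of *Arg1* and *Nos2* with their receptors (0.00), 6 of the glucocorticoid and steroid response (0.10) or 9 of the phagocyte oxidase and lysosome (−0.09), against a median of −0.03 over all genes. At an unadjusted limma p under 0.05 these lists held, besides *Chil3* and *Hsd11b1*, the fractalkine receptor *Cx3cr1* (log2 fold change −0.71, SE 0.26, limma adjusted p = 0.318), the costimulatory ligand *Cd80* (0.33, SE 0.14, adjusted 0.379), *Tgfb1* (0.22, SE 0.08, adjusted 0.318), *Ifng* (0.92, SE 0.32, adjusted 0.291), its receptor chain *Ifngr1* (0.26, SE 0.10, adjusted 0.358), *Csf2*, the ligand GM-CSF (0.78, SE 0.29, adjusted 0.318) and *Mpo* (−0.60, SE 0.25, adjusted 0.364). *Csf2* (mean 4.52 in hetIL-15 and 3.74 in PBS tumors) and *Mpo* (3.94 and 4.55) were low, near the bound of 3.84 for the lowest 10% of genes. *Ifng* (5.10 and 4.17) was also near this bound in PBS tumors.

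Markers of other cells were set beside the members. Of 5 NK genes, *Ncr1* (log2 fold change 1.10, SE 0.19, limma adjusted p = 0.0162) and *Klrc1* (1.32, SE 0.25, adjusted 0.0227) were higher in hetIL-15 tumors. The summed level of the 5 NK genes off the log2 scale was 790.2 to 1263 in hetIL-15 and 504 to 836 in PBS tumors. Their lowest log2 value in any tumor was 3.79. The call of *Klrc1* was lost without any one of PBS replicates 4 and 5 and hetIL-15 replicates 3 and 4 (limma adjusted p = 0.0558, 0.0623, 0.0531 and 0.0554). Without PBS replicates 4 and 5 together neither *Ncr1* nor *Klrc1* passed (limma adjusted p = 0.114 and 0.145). The macrophage list summed to 9822 to 17977 (median 14226) in hetIL-15 and 10044 to 16817 (median 13572) in PBS tumors, with hetIL-15 replicates 5 and 2 and PBS replicate 4 the lowest. The tumor highest in *Hsd11b1*, hetIL-15 replicate 2, and the one lowest in it, PBS replicate 4, both had low macrophage sums (10799 and 10044). Sums of the 12 stroma and vessel genes were 64328 to 86056 (median 79529) in hetIL-15 and 63603 to 77257 (median 74015) in PBS tumors, and 4 of 6 hetIL-15 tumors, replicates 1, 2, 4 and 6, were above all PBS tumors. Off the log2 scale such a sum is weighted toward high genes. One of these was *Fn1*, with a mean log2 value of 14.51 in hetIL-15 and 14.26 in PBS tumors (limma adjusted p = 0.398). The sums of 12 neutrophil genes were 1109 to 1807 and 1110.2 to 1846, and those of 7 monocyte genes 3692 to 5814 and 3886 to 5857, in the same order of groups. No gene of these 3 lists passed (median log2 fold change −0.06, 0.00 and 0.06). The part of these cells in the levels of *Chil3* and *Hsd11b1* was not tested.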

How the data were processed

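Members and gene lists were chosen with earlier results of these data known. RNA of 11 whole tumors was measured on a NanoString panel of 780 genes. The deposited values are log2 expression: the authors removed low expressed genes (758 left), log transformed and quantile normalized. The deposited probe counts stand in 11 columns whose names match no tumor, so they were not used. Only the probe's class, name and accession were taken from that table.

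Tumors were grouped by the labels' treatment and compared with limma 3.58.1 in R 4.3.3 (lmFit, eBayes, no covariates). Benjamini-Hochberg adjustment covered all 758 genes, at a threshold of 0.05, with Bonferroni as an alternative. The study's processing notes name limma. Correlations used 100000 resamples of the pairing, exact enumeration up to 9 tumors, and 86400 arrangements within groups. The 45 pairs were adjusted together. Tumors are separate samples in the labels, and p values measure the spread between these samples, which may be technical in part. The procedure was tested on simulated data. Python 3.11.15 with matplotlib 3.10.9 made the figures.

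Named genes were the 10 members, the genes of the 17 lists past the threshold or among the 3 smallest p of a list (those printed have an unadjusted p under 0.05, apart from *Epcam* and *Xcr1*), and the 5 genes most like *Arg1*, *Chil3* and *Hsd11b1*, of which 1 is not reported here. Alternatives were median scaling, scaling by the mean of 20 housekeeping genes, a filter on the lowest 10% of genes by signal, a variance trend, array weights, an exact Mann-Whitney test, leaving out tumors, and the replicate number as a block. By accession, 9 of 10 members matched RefSeq (not *Cd68*), and 6 had a promoter entry. Protein, cytometry and histology data of the study were not analysed here.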

Additional observations from a re-analysis of the deposited data

How the results depend on the processing

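No member passed the adjusted threshold under any of 20 alternatives. *Chil3* kept its direction and an unadjusted p under 0.05 in all 20 (log2 fold change 0.92 to 1.25), and *Hsd11b1* kept its direction in 20 (1.20 to 1.79) and an unadjusted p under 0.05 in 19. Of the 20, Bonferroni and the exact Mann-Whitney test reuse the main fold change, so their direction was fixed in advance. Bonferroni also reuses the main unadjusted p. Without PBS replicates 4 and 5 together 1 member was left at an unadjusted p under 0.05, and without single tumors 2 to 3. The whole table had 16 genes called by limma, 5 without PBS replicates 4 and 5, 4 by Bonferroni, 0 by the exact Mann-Whitney test after adjustment (69 unadjusted), and 8 to 15 when a single tumor was left out. The cause was not tested.

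Differences near 0 changed sign. *Cd68* was 0.00 with median scaling, −0.02 with array weights, −0.10 without PBS replicates 4 and 5, and −0.07 to 0.06 without single tumors. *Mrc1* was 0.04 with housekeeping scaling, 0.08 without PBS replicates 4 and 5, and −0.12 to 0.02 without single tumors, and *Nos2* was −0.27 to 0.02. Housekeeping scaling moved the median of all genes by 0.09.

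The correlation of *Hsd11b1* and *Chil3* was −0.33 with group means subtracted and −0.41 in hetIL-15 tumors alone. That of *Hsd11b1* and *Arg1* was −0.05 to 0.36 without single tumors. *Chil3* and *Arg1* had r = 0.14 without the 2 farthest tumors, 0.08 without PBS replicates 4 and 5, 0.02 with housekeeping scaling, and −0.25 to 0.13 without single tumors. With housekeeping scaling 5 of 45 pairs passed the adjustment, whereas the relations of *Mrc1* with *Cd68*, *Msr1* and *Csf1r* were smaller. Without PBS replicate 2, 3 pairs passed, and without replicates 4 and 6 of hetIL-15 in turn 1 and 2 pairs.

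Same-numbered tumors of the groups deviated together little (correlations −0.052 to 0.13). Differently numbered tumors were not set beside them and the labels name no pairing, so whether the numbers pair tumors was not tested. The fit with the replicate number as a block left out hetIL-15 replicate 6, since no PBS tumor has its number. In this smaller fit 0 members and 5 of all genes were called, *Ncr1*, *Klrc1* and *Cd69* no longer passed, and *Cd68* was −0.02.

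The number of tumors limits the precision, and values of single probes carry no known counting error.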

Other observations

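Single tumors held several of the extremes. Among hetIL-15 tumors, replicate 5 had the lowest *Cd68*, *Csf1r* and *Msr1* and the highest *Mrc1* of all 11 tumors, and replicate 3 the highest *Cd68* and *Msr1* and the lowest *Mrc1*. HetIL-15 replicate 2 had the highest *Hsd11b1* and the lowest *Csf1*, and replicate 1 the highest *Chil3* and the lowest *Nos2*. Among PBS tumors, replicate 5 had the highest *Arg1* and *Nos2* and the lowest *Chil3*, replicate 4 the highest *Csf1* and the lowest *Cd163* and *Hsd11b1*, replicate 3 the highest *Cd163* and the lowest *Arg1*, and replicate 2 the highest *Csf1r*. None of the 20 groups of values (10 genes in 2 groups) held a tumor past Dixon's critical value.

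Other antigen-presenting and stromal genes gave the following values. Of 5 dendritic cell genes none passed, with *Itgax*, the integrin CD11c, at 5.43 ± 0.24 in hetIL-15 and 6.19 ± 0.44 in PBS tumors (SD, n = 6 and 5, log2 fold change −0.76, limma adjusted p = 0.126). Without PBS replicate 5 *Itgax* passed (−0.90, limma adjusted p = 0.0425). *Batf3*, a transcription factor of cDC1, had a log2 fold change of −0.37 (limma adjusted p = 0.416), and *Xcr1*, a chemokine receptor of cDC1, one of 0.28 (limma adjusted p = 0.814). The summed level of the 5 dendritic cell genes was 151 to 208 in hetIL-15 and 209 to 249.6 in PBS tumors, which nearly met and were not tested. Of single genes, 2.51% had groups that did not overlap. The lowest log2 value of a gene of this list in any tumor was 3.19. That is under 3.84, the bound of the lowest 10% of genes by mean signal. The paper reported the other direction: a dendritic cell score from this panel that was higher with hetIL-15, and more cDC1 by cytometry. Its score was a geometric mean over a published marker set, which was not recomputed here. The sum above is therefore not the same measure. In the stroma and vessel list, *Col4a1* had a log2 fold change of 0.47 and *Fn1* of 0.25 (limma adjusted p = 0.318 and 0.398). No gene passed among 9 T cell genes (median 0.23), 5 B cell genes (−0.42), 3 epithelial genes (0.09) or 3 mast cell genes (−0.11). The median of the 5 NK genes was 0.72 and that of the 5 dendritic cell genes −0.15, and *Epcam*, an epithelial marker, was 5.09 ± 0.70 in hetIL-15 and 5.0 ± 0.31 in PBS tumors.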
